A study of Mus musculus with 3 samples.

Results

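Splicing factors and nuclear RNA-binding proteins were examined in mouse metaphase II oocytes, at the level of the transcript and of the gene. The members are all listed transcripts whose gene symbol begins with Srsf, Sf3, Prpf, Hnrnp or Rbm, together with those of the kinase genes Clk1 to Clk4. They number 90 of the 9126 listed transcripts and 54 of the 6104 gene symbols. The rule for members used symbols only, though it was set with earlier results of these data known. The table itself was chosen on measured values. No listed transcript had less than 1.20 times its young level in aged oocytes. All 90 members therefore exceeded their young level in the aged library by construction, the lowest of them 1.21 times.

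There were 3 libraries, 1 per group, named Young, Aged and Aged_sec by their titles (the last is called aged-sec here). Each was made from 20 metaphase II oocytes of 4 ICR mice, and the sources used here give no ages. Oocytes were taken at the germinal vesicle stage and matured in M16 medium for 16 to 18 h. For the aged-sec library the medium was mixed 1 to 1 with hUC-MSC-sec, which names the factors released by mesenchymal stem cells of the human umbilical cord. The treatment field names hUC-MSC-sec on all 3 samples, so the titles define the groups. Values are TPM, a measure of each transcript's share of the library corrected for its length, so that levels of different genes can be compared. Where 3 values are given in a row, they are those of the young, the aged and the aged-sec library, in this order. With 1 library per group there is no replicate error and no p-value, and each difference is one between libraries, not between conditions. Depth is unknown, because TPM keep no read number. In pooled oocytes, fewer cells that hold an mRNA and less of it per cell cannot be told apart.

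Splicing removes introns from pre-mRNA in the spliceosome, a large machine of small nuclear RNAs and proteins. SR proteins (Srsf genes) bind exons and recruit the machine, whereas hnRNP proteins (Hnrnp genes) often act against them. CLK kinases phosphorylate SR proteins and control their release from nuclear speckles, Sf3 proteins hold the branch point within the U2 particle, and Prpf proteins build the U4/U6.U5 particles and the active site. Rbm genes form a mixed group, named for RNA-binding motifs. Many of these genes regulate their own mRNAs by alternative splicing. The fully grown oocyte transcribes little, so its mRNAs at metaphase II are those stored during growth less those degraded during maturation.

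The members made up a small part of each library. Together they came to 1725, 2518 and 2352 TPM, or 0.172%, 0.252% and 0.235% of a library. As a share of the listed transcripts they were 0.752%, 0.775% and 0.732%. The table as a whole held 22.9%, 32.5% and 32.1% of the 3 libraries. Of 104 RefSeq protein-coding genes with such symbols, 54 (51.9%) had a listed transcript. Over all 21896 protein-coding genes, whether expressed in oocytes or not, the share was 27.3%, and the difference was not tested. By family the 54 of 104 genes were 7 of 11 Srsf, 4 of 9 Sf3, 7 of 13 Prpf, 13 of 21 Hnrnp, 19 of 46 Rbm and 4 of 4 Clk genes. The other 50 genes, Srsf1 and Srsf6 among them, were not analysed here. Listing was also partial within genes: RefSeq holds 432 mRNAs of the 54 genes, and every mRNA was listed for only 10 of them. A summed TPM is therefore the sum of the listed transcripts, not the level of the gene. Of the 16 oocyte markers 4 were listed (Bmp15, Gdf9, Kit and Zp2), with summed levels of 629, 886 and 851 TPM. Markers of cumulus and granulosa cells (2 of 14 listed) summed to between 1.20 and 2.37 TPM, stromal markers (3 of 6) to between 2.28 and 4.16 TPM, and 0 of 6 leukocyte markers were listed. As deposited, all these sums were lowest in young and highest in aged oocytes, with young below aged by the choice of the table. Bmp15 made up most of the oocyte sum, at 585, 817 and 799 TPM. The part of these markers in the results was not tested.

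Shares of transcript variants are given below, and for some pairs the stretches of coding sequence that differ are shown first. They come from the GENCODE M21 transcripts that GENCODE pairs with the listed RefSeq accessions, found for 45 of the 90 members. Each is spliced coding sequence, 5′ to 3′, with 18 coding bases on each side where the sequence goes on, and positions are counted from the first coding base. Capitals mark the bases that the other variant lacks, except for Hnrnpk, where their meaning is given with the pair. For Clk2 the variants part at the start of exon 3 of 13, where 3 bases are kept or skipped at coding positions 171 to 173.
Clk2 NM_007712: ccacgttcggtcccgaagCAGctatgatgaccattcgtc
Clk2 NM_001163432: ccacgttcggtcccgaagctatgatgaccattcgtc
The Rbm3 pair likewise differs by 3 coding bases, within exon 6 of 7 (coding positions 405 to 407). The variant without them also has 116 noncoding bases that the other lacks.
Rbm3 NM_001166409: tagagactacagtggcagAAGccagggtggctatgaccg
Rbm3 NM_001166410: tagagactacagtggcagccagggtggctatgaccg
For Hnrnpk the last exon starts further downstream in the shorter form, which gives another end of the coding sequence. The capitals mark bases that are coding in that variant only. Their first letters are alike but lie at different places, and those of NM_001301345 are noncoding in the other variant. In the order shown, the variants also have 124 and 185 noncoding bases that the other lacks.
Hnrnpk NM_001301344: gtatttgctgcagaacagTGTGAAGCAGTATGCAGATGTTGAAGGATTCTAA
Hnrnpk NM_001301345: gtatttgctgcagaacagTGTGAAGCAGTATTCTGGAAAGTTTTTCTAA
For Srsf7 the longer variant carries 24 extra bases in exon 5 of 8 and a whole exon 7 of 36 bases. The variant without both has 7 noncoding bases that the longer one lacks.
Srsf7 NM_001195486, exon 5: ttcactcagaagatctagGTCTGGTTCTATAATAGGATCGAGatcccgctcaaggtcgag
Srsf7 NM_001195486, exon 7: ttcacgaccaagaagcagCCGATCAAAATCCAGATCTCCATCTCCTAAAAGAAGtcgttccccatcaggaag

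Few members passed a 2-fold rule. It asked for a log2 ratio of 1 or more in either direction, with 0.5 TPM added to both values, and for 10 TPM or more in one of the libraries compared. Aged over young, 3 of the 35 members with enough TPM passed it, or 8.57%, beside 18.2% of all listed transcripts with enough TPM. They were the listed copy of Srsf3 and predicted variants of Hnrnpa2b1 and Rbm44. Aged-sec over aged, 3 of 35 were lower by the rule, against a background of 2.95%, and 0 were higher (background 0.223%). The lower ones were the Clk2 variant NM_001163432 and the same predicted variants of Hnrnpa2b1 and Rbm44. Both comparisons use the aged library, so 1 value enters both ratios in opposite directions, and the table was chosen for high values in that library. Aged-sec over young, 1 of 28 was higher (Srsf3, background 17.1%) and 1 was lower (Clk2 NM_001163432, background 0.45%). With the listed transcripts of a gene summed, 2 of 30 genes passed aged over young (Srsf3 and Hnrnpa2b1, background 16.7%). Aged-sec over aged, 1 gene was lower (Hnrnpa2b1, background 2.18%) and 0 were higher (background 0.155%). Aged-sec over young, 1 of 28 genes was higher (Srsf3, background 14.3%) and 0 were lower (background 0.343%).

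These shares depend on the scale. The libraries were also scaled on the listed transcripts, by the median of ratios or by the upper quartile. These transcripts were all chosen as higher in aged, so a scaled ratio holds only relative to them. Aged over young, Srsf3 alone then passed, 1 of 33 (3.03%) or 1 of 34 (2.94%) members with enough TPM, near the 2.79% or 2.81% of all. Aged-sec over aged, 2 of 30 members were lower under either scaling (Clk2 and Hnrnpa2b1), beside 1.4% or 1.56% of all. Aged-sec over young, Srsf3 passed on the higher side beside 4.04% or 3.84% of all, and the Clk2 variant on the lower side beside 1.64% or 2.01%. Where the order of the libraries is described, it is the order as deposited unless scaling is named.

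**Figure D1:**
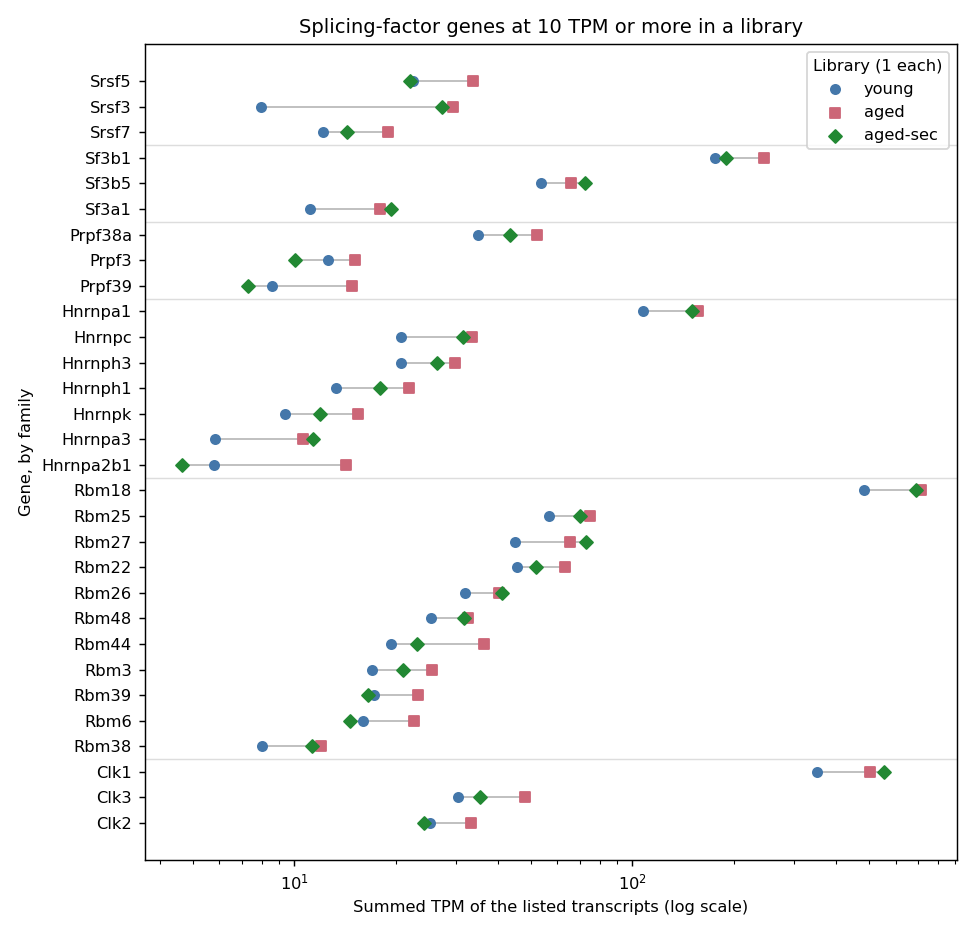
Summed TPM of the listed transcripts (log axis) for the 30 member genes with at least 10 TPM in a library, by family, with 1 point per library. As deposited, the aged point lies right of the young point in each row by the choice of the table, while aged-sec lies from below young (Hnrnpa2b1, 4.64 against 5.77 TPM) to above aged (Clk1, 553 against 504 TPM).

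The CLK kinases were the family listed in full. Clk1 (NM_001042634) was the most abundant, at 352, 504 and 553 TPM, rank 82 of all listed transcripts in the aged library. It was highest in aged-sec oocytes, a log2 ratio of 0.13 over aged. RefSeq holds only this mRNA of Clk1, so the value stands for the annotated gene. For Clk2 both RefSeq mRNAs were listed, and they went apart. NM_001163432 had 11.3, 14.0 and 0.07 TPM, a log2 ratio of −4.67 between aged-sec and aged. NM_007712, which carries the 3 bases, stood at 13.9, 19.3 and 24.2 TPM. The variant without them thus held 44.9%, 42.0% and 0.29% of Clk2. The gene as a whole stood at 25.2, 33.2 and 24.3 TPM, with the aged-sec value close to the young one and a log2 ratio of −0.45 over aged, short of the rule. With median-of-ratios scaling the sum in aged-sec oocytes was below young, at a log2 ratio of −0.55, and closer to aged, at −0.16. In the GENCODE models the shorter variant has 0 bases of its own, and the longer one has the 3 shown and 23 noncoding ones. Only reads over the places where these bases are kept or missing tell the variants apart, and how the quantification divided the other reads is not stated in the labels. Clk3 stood at 30.5, 48.0 and 35.4 TPM, of which the predicted variant XM_006510739 held 94.6% to 96.6%. Clk4 (NM_007714) was the lowest Clk gene in each library at 0.85, 1.82 and 1.27 TPM, but this is 1 of its 16 RefSeq mRNAs.

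Of the SR proteins, 7 genes were listed, summing to 51.8, 96.0 and 73.5 TPM. Srsf3, the smallest SR protein and an adaptor for mRNA export, had the largest excess with age among members that passed the rule. It stood at 7.98, 29.4 and 27.3 TPM, with log2 ratios of 1.82 for aged over young and 1.71 for aged-sec over young. The aged and aged-sec libraries lay together and the young library apart. The row is marked as the second annotated copy of the accession (NM_013663), the first copy was not analysed here, and reads shared by identical copies can be divided between them. The value is therefore uncertain as a measure of Srsf3. Srsf5 stood at 22.4, 33.7 and 21.9 TPM over its 3 listed variants, so that young and aged-sec differed by less than 1 TPM as deposited. After scaling the log2 ratio of aged-sec over young was −0.52 or −0.55. Its main variant (NM_001079695) stood at 13.1, 19.2 and 14.1 TPM, and NM_001347415 at 7.71, 11.8 and 6.42 TPM. Srsf7 stood at 12.2, 18.9 and 14.4 TPM. Its longer variant (NM_001195486) held 63.9%, 59.2% and 56.7% of the listed sum, and the one without both stretches (NM_001195487) 20.8%, 28.7% and 29.3%. Srsf2, an SR protein used as a marker of speckles, stood at 6.79, 8.34 and 8.06 TPM. The listed variants of Srsf4, Srsf10 and Srsf11 reached at most 3.03 TPM, and the largest spread was in Srsf11 (XM_011240219), at 0.35, 3.03 and 0.58 TPM.

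All 11 Srsf transcripts were below aged in the aged-sec library before any rescaling, beside 70.6% of all listed transcripts. Their ratios ran from 0.191 to 0.966 with a median of 0.727. Under either scaling 8 of 11 were lower and 3 higher, beside 49.9% (median of ratios) and 52.8% (upper quartile) of all lower. Against young oocytes 4 of the 11 were lower in aged-sec (background 21.8%), and under either scaling 8 of 11, beside 50.2% and 52% of all.

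The Sf3 subunits were led by Sf3b1, the largest subunit of the complex that grips the branch point, with 175, 245 and 189 TPM. Its aged-sec value lay nearer to young as deposited, but nearer to aged and below young with median-of-ratios scaling (log2 ratios of −0.084 over aged and −0.39 over young). The small SF3b subunit Sf3b5 was measured at 53.7, 65.9 and 72.2 TPM, and Sf3a1, of the partner complex SF3a, at 11.1, 18.0 and 19.4 TPM. For both the aged-sec library was the highest, unlike for Sf3b1, although Sf3b5 was lower in aged-sec than in young after scaling. Sf3b3 was lower at 5.13, 8.78 and 6.89 TPM. None of the 3 Sf3 transcripts with enough TPM passed the rule in a pair. Relative to aged, 3 of 5 were lower in aged-sec as deposited (70.6% of all), 2 of 5 with median-of-ratios scaling (49.9% of all) and 3 of 5 with upper-quartile scaling (52.8% of all).

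Among the Prpf genes, Prpf38a, a protein that joins the spliceosome before its activation, had 34.9, 52.3 and 43.3 TPM. Prpf3, of the U4/U6 particle, stood at 12.6, 15.2 and 10.01 TPM, and Prpf39, a partner of the U1 particle (XM_006516031, predicted), at 8.58, 14.8 and 7.31 TPM. These 2 genes were lowest in the aged-sec library. The log2 ratio of Prpf39 over aged was −0.97, just short of the rule, which it passed with 0.1 TPM added in place of 0.5. Prpf8, the scaffold at the catalytic centre, stood at 4.51, 6.34 and 5.57 TPM, and the listed variants of Prpf4, Prpf4b and Prpf38b at most at 2.11 TPM. Of the 8 Prpf transcripts 5 were below their aged level in aged-sec oocytes as deposited, beside 70.6% of all. With median-of-ratios scaling 3 were (49.9% of all) and with upper-quartile scaling 4 (52.8% of all).

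Hnrnpa1, which represses exons by binding to silencer elements, was the most abundant Hnrnp gene, with both of its RefSeq mRNAs listed. They summed to 107, 156 and 150 TPM. The variant NM_010447 held 97.0%, 96.3% and 97.8% of it. The variant NM_001039129 stood at 3.25, 5.85 and 3.33 TPM. Hnrnpc, which binds runs of U in introns, stood at 20.7, 33.6 and 31.5 TPM over 2 of its 23 mRNAs. The variants NM_001360180 and XM_006518571 were equal in young oocytes at 10.3 TPM each and close in aged oocytes at 16.2 and 17.4 TPM. In aged-sec oocytes they stood at 20.5 and 11.0 TPM, so the first held 50.0%, 48.2% and 65.1% of the listed sum. Hnrnpa2b1, another exon repressor, was listed with a single predicted variant (XM_030255499), 1 of 9 mRNAs, at 5.77, 14.2 and 4.64 TPM. The log2 ratios were 1.23 for aged over young and −1.52 for aged-sec over aged, so the aged library stood alone as deposited. With median-of-ratios scaling the first was 0.48, short of the rule, the second −1.23, and aged-sec over young was −0.75, so the aged-sec library lay furthest from the others. Hnrnpk, a poly(C)-binding protein, stood at 9.40, 15.4 and 11.9 TPM, and the shorter coding form (NM_001301345) held 34.0%, 46.8% and 40.5% of it. Hnrnph3 stood at 20.7, 29.9 and 26.4 TPM and Hnrnph1 at 13.3, 21.8 and 17.9 TPM. Hnrnpa3 (NM_198090) stood at 5.82, 10.6 and 11.4 TPM. The other 6 Hnrnp genes were listed at up to 5.24 TPM, the highest being Hnrnpr with 3.84, 5.24 and 1.73 TPM. Hnrnpd was the lowest at 0.04, 0.05 and 0.05 TPM, and Hnrnpdl, Hnrnpf, Hnrnpll and Hnrnpul1 lay between them. Of the 22 Hnrnp transcripts 17 were lower and 4 higher in aged-sec relative to aged oocytes as deposited. These 77.3% lower lay near the 70.6% of all, and the 11 (50%) lower under either scaling near the 49.9% and 52.8% of all.

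The Rbm genes held the most abundant member, Rbm18, which encodes a protein with an RNA recognition motif. Its main variant (NM_026434) had 481, 704 and 687 TPM, rank 59, 60 and 56 of the listed transcripts. It held at least 99.1% of the listed Rbm18 sum in each library. Rbm25, a regulator that contacts the U1 particle, summed to 56.6, 75.0 and 70.0 TPM over 4 variants. Rbm22, part of the active spliceosome and listed with its only mRNA, stood at 45.7, 63.3 and 51.9 TPM. Rbm26 and Rbm27, related proteins that link nuclear RNA to the exosome, were both highest in aged-sec oocytes, although after scaling Rbm26 was lower there than in young. Rbm27 stood at 44.8, 65.6 and 73.0 TPM and Rbm26 at 32.1, 40.4 and 41.2 TPM. Rbm48, of the minor spliceosome, stood at 25.3, 32.6 and 31.7 TPM, and Rbm39, a U2AF-like coactivator, at 17.2, 23.2 and 16.5 TPM over 3 of 43 mRNAs.

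Rbm44, a germ cell protein of intercellular bridges, had the second pair of variants that went apart, 2 of its 3 RefSeq mRNAs. As for Clk2 and the other genes with several variants, how shared reads were divided between them is not stated in the labels. The curated variant (NM_001033408) had 7.80, 10.5 and 12.0 TPM. The predicted one (XM_006529704) stood at 11.5, 25.8 and 11.0 TPM, with log2 ratios of 1.13 for aged over young and −1.20 for aged-sec over aged. The predicted variant was the more abundant in young and aged oocytes, with 59.7% and 71.0% of the listed sum, and the curated one in aged-sec oocytes, with 52.3%. As a sum Rbm44 stood at 19.3, 36.4 and 23.0 TPM and passed the rule in no pair. With median-of-ratios or upper-quartile scaling the predicted variant passed the rule in neither pair, at 0.36 or 0.37 for aged over young and −0.91 or −0.95 for aged-sec over aged. Rbm6 also had its top variant exchanged: NM_029169 led in young (8.05 against 6.60 TPM) and aged-sec oocytes (7.34 against 6.41 TPM), and NM_011251 in aged oocytes (10.8 against 9.80 TPM). Rbm3, a cold-inducible protein, stood at 16.9, 25.5 and 21.0 TPM. Its variant with the 3 extra bases (NM_001166409) stood at 2.46, 7.70 and 5.08 TPM, or 14.5%, 30.2% and 24.2% of the listed sum. The one without them (NM_001166410) stood at 14.5, 17.8 and 15.9 TPM. Rbm38, an RNA-binding target of p53, was highest, as deposited, in aged (12.0 TPM, 1.50 times its young level) and close to it in aged-sec oocytes (11.3 TPM). The remaining 8 Rbm genes were low: Rbm4 summed to 1.01, 3.55 and 1.85 TPM, Rbms1 to 0.54, 1.50 and 0.62 TPM, and Rbm11, Rbm12b1, Rbm34, Rbm41, Rbm45 and Rbmx stayed under 1 TPM in each library. Of the 38 Rbm transcripts 30 were lower and 8 higher in aged-sec relative to aged oocytes as deposited, or 78.9% lower beside 70.6% of all. With median-of-ratios scaling 21 (55.3%) were lower beside 49.9% of all, and with upper-quartile scaling 24 (63.2%) beside 52.8%.

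**Figure D2:**
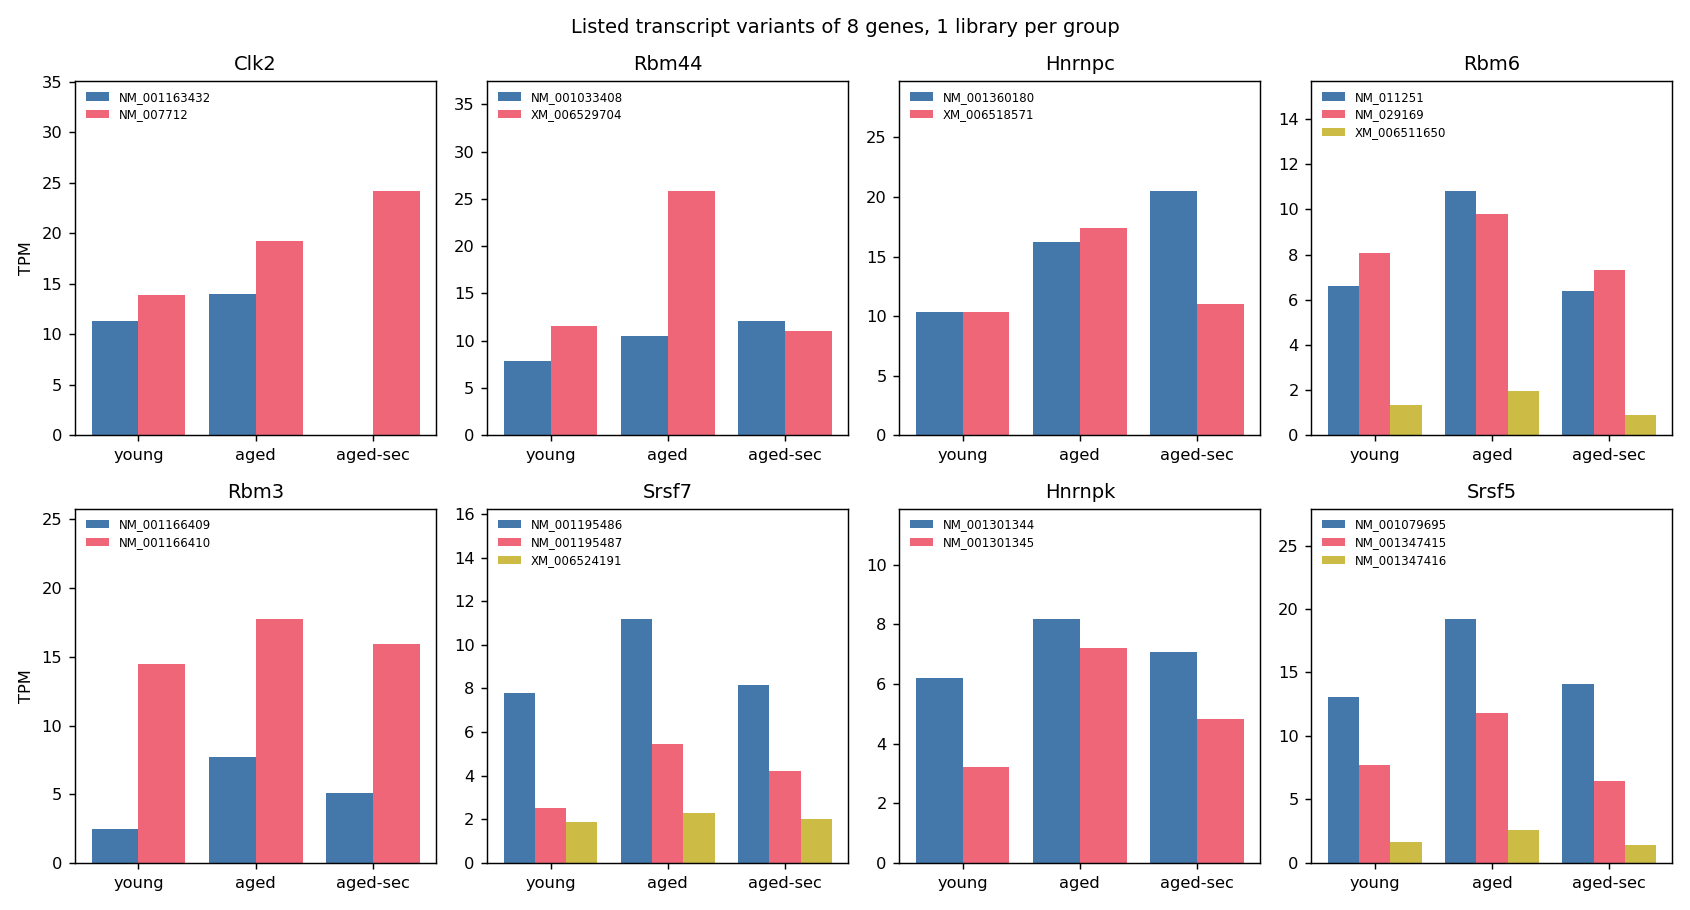
TPM (bars from 0) of the listed variants of 8 genes in the young, aged and aged-sec libraries, 1 bar per variant. Clk2 NM_001163432 has no visible bar in aged-sec oocytes (0.07 TPM), and the order of the variants of Rbm44, Hnrnpc and Rbm6 is not the same in all 3 libraries.

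In all, 23 member genes had at least 2 listed variants, and in 18 of them the same variant was the most abundant in each library. In the other 5 the top variant was not the same in all 3 libraries or was tied in one (Hnrnpc, Rbm44, Rbm6, Hnrnpul1 and Rbm4). The last 2 had a mean summed level of 1.07 and 2.14 TPM. Rbm27 is an example of variants in step: its predicted variant held 60.1%, 61.1% and 61.6% of the listed sum. In Clk2 the order was the same in each library, but the distance was not.

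**Figure D3:**
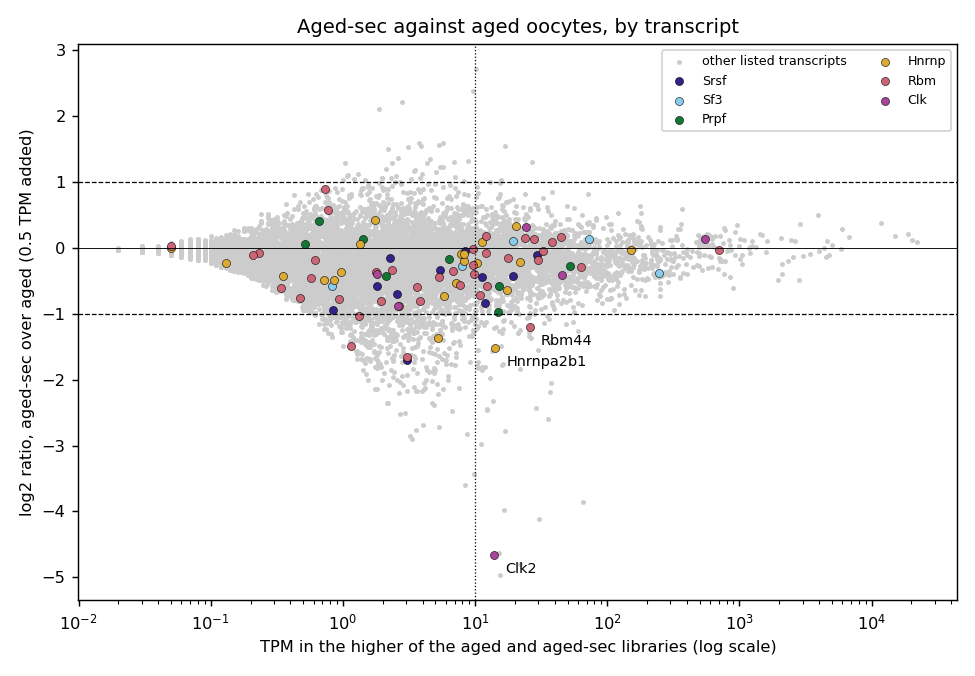
Log2 ratio of aged-sec over aged (0.5 TPM added) against the TPM in the higher of both libraries (log axis), 1 point per listed transcript, with members in colour. Dashed lines mark 2-fold and the dotted line 10 TPM; beyond both lie Clk2 (−4.67), Hnrnpa2b1 (−1.52) and Rbm44 (−1.20), all below 0; after scaling Rbm44 lay inside 2-fold (−0.91 or −0.95).

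Over all 90 members the median aged over young ratio was 1.51, against 1.71 for all listed transcripts. Members were listed at higher levels (median 4.17 TPM in young oocytes, against 1.14), and among transcripts with at least 10 TPM both medians were close, at 1.47 and 1.48. Scaling on the listed transcripts lowered the log2 ratios of aged over young by 0.79 and of aged-sec over young by about 0.50. After it 61 of 90 members (67.8%) were lower in aged than in young oocytes, beside 50.9% or 50.5% of all. Every listed transcript was chosen as higher in aged, so lower here means only relative to the other listed transcripts. The shares over all follow from the scaling itself. Between aged-sec and aged oocytes 70 of 90 members were lower, 19 higher and 1 equal, or 77.8% lower against 70.6% of all. The median ratio was 0.766 against 0.818, and 0.876 against 0.884 among transcripts with at least 10 TPM. Median-of-ratios scaling raised the log2 ratios of this pair by 0.29, after which 49 of 90 members (54.4%) were lower, against 49.9% of all. Upper-quartile scaling left 54 (60%) lower, against 52.8%. By summed TPM 41 of 54 genes (75.9%) were lower in aged-sec, beside 73.9% of all, 26 of 54 with median-of-ratios scaling (49.8% of all) and 31 of 54 with upper-quartile scaling (53.3% of all). Relative to young, 26 of 90 members and 13 of 54 genes were lower in aged-sec oocytes, with backgrounds of 21.8% and 20.8%. With median-of-ratios scaling 60 members (66.7%) and 37 genes (68.5%) were lower, beside 50.2% and 53.4% of all, and with upper-quartile scaling 61 and 38, beside 52% and 55.5%. None of the shares lower, here or by family, was compared among transcripts of like level. As members were listed at higher levels, a difference in these shares cannot be assigned to their being splicing factors.

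**Figure D4:**
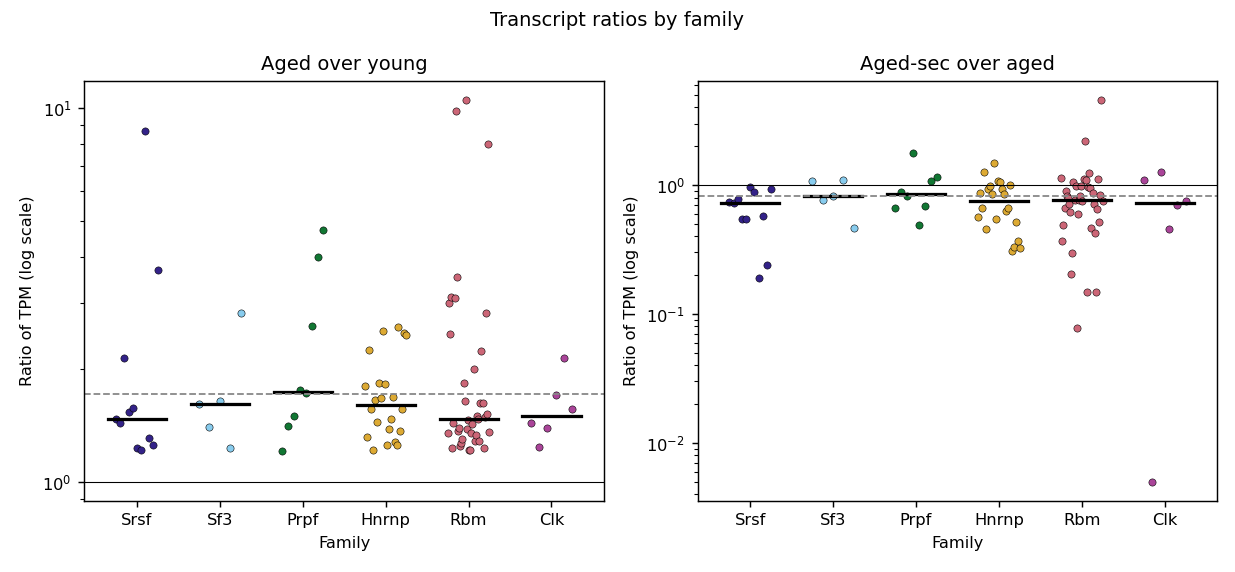
Ratio of TPM (log axis) for each member transcript by family, aged over young on the left and aged-sec over aged on the right. Black bars are family medians and the dashed line is the median of all listed transcripts (1.71 and 0.818); the left panel has no point below 1.2 by the choice of the table, and in the right panel every Srsf point is below 1 as deposited, against 8 of 11 after scaling.

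The other splicing genes were read from 3 lists by textbook role. Of 74 further core spliceosome genes 38 were listed, and 2 of the 22 with enough summed TPM passed the rule aged over young (background 16.7%). They were Slu7, a factor of the second catalytic step, with 13.4, 32.4 and 24.5 TPM, and Ppil2 at 12.4, 29.4 and 21.0 TPM. The most abundant were Ppih, a cyclophilin of the U4/U6 particle, at 446, 561 and 580 TPM, and Cdc5l, of the activating Prp19 complex, at 219, 320 and 307 TPM. In this list 31 of 38 genes were below aged in the aged-sec library (background 73.9%), and 25 with median-of-ratios scaling (49.8% of all genes). Of 26 SR-related genes 14 were listed, 0 passed aged over young, and 10 lay below aged in aged-sec (9 with median-of-ratios scaling). Srrm1, a speckle protein, led with 121, 217 and 195 TPM. Luc7l2, a U1-associated protein, stood at 26.5, 46.1 and 56.5 TPM, the only one of the list to pass aged-sec over young, at a log2 ratio of 1.08. Of 51 alternative splicing regulators 28 were listed, and 19 were below their aged level in aged-sec oocytes, but 8 with median-of-ratios scaling. Elavl2 stood at 43.2, 75.2 and 66.5 TPM and Matr3 at 51.9, 81.1 and 69.5 TPM. Cirbp, another cold-inducible protein, passed aged over young at 6.61, 13.8 and 9.06 TPM. The listed variants of the helicase gene Ddx5 passed aged-sec over aged on the lower side, at 5.48, 10.4 and 3.83 TPM. Under either scaling 0 genes of these 3 lists passed the rule between aged and either other library, and 0 were higher by it in aged-sec than in young oocytes. With upper-quartile scaling 1 of 23 core spliceosome genes (4.35%) was lower by it in aged-sec than in young oocytes, beside 1.33% of all genes.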

How the data were processed

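RNA of pooled oocytes was turned into cDNA with SMART-SeqII, and libraries were built with a transposon method, per the labels' protocols. The authors deposited TPM of RefSeq mRNAs with 2 decimals, per the file headers, although the table's name speaks of counts. Their 2 ratio columns, per the file headers, hold aged divided by young and aged-sec divided by aged, and matched the TPM quotients within a relative 6.6e-07. No aligner, quantification program or genome build is named in the sources used here, and coordinates are left out. The deposited rows hold no 0.

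All ratios were computed from the deposited TPM with Python 3.11.15 and pandas 2.3.3. Log2 ratios had 0.5 TPM added, which shrinks those of low transcripts. Other ratios had none added. All 90 member accessions matched RefSeq (GRCm38.p6), used for names and numbers of mRNAs. The script that makes the calls was tested on simulated data. Alternatives were 2 scalings, other pseudocounts and minima, curated transcripts alone, repeated rows dropped and the highest row per gene.

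Members and gene lists were chosen with earlier results of these data known. The rule for named genes took the Clk genes, the 3 highest genes of every other family, the transcripts past the 2-fold rule (at most 10 for aged over young), up to 6 genes with a mean of at least 10 TPM whose top variant differed between libraries, and from each further list the 2 highest genes and up to 3 past the rule. Other members were named after their values were seen. The sequences of 1 variant pair are not reported here.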

Additional observations from a re-analysis of the deposited data

How the results depend on the processing

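With 1 library per group no replicate could be left out and no test run. No paired analysis was possible because each group has 1 library. The listed rows were chosen on the aged over young ratio, and scaling on these rows takes out their common excess in aged. It does not undo the choice, because no rows outside it were at hand. Median-of-ratios scaling moved log2 ratios by −0.79 (aged over young), 0.29 (aged-sec over aged) and −0.50 (aged-sec over young), and upper-quartile scaling by −0.79, 0.25 and −0.54. The members' median log2 ratio, 0.50, −0.34 and 0.22 as deposited, became −0.14, −0.0805 and −0.13 with the first and −0.13, −0.12 and −0.16 with the second. The median of all listed transcripts became −0.0075, 0.0005 and −0.0028 with the first and −0.0038, −0.0237 and −0.0189 with the second. It is this median over all, not that of the members, which scaling on the listed transcripts brings near 0 by construction. Under either scaling 1 member transcript and 1 gene passed the 2-fold rule aged over young (Srsf3).

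With a minimum of 1 TPM, 10 member transcripts passed aged over young, beside 1284 of all listed transcripts. Aged-sec over aged, 8 were lower, beside 484 of all. Aged-sec over young, 3 were higher and 2 lower, beside 960 and 69 of all. With the 10 TPM minimum these counts over all were 398, 66, 341 and 9, so they rose for the whole table. By sums 6 genes and 3 genes passed the first pairs. With a minimum of 20 TPM, 1 transcript (Rbm44) was lower aged-sec over aged, beside 26 of all listed transcripts. Aged-sec over young, 0 were lower, beside 4 of all. By sums 1 gene (Srsf3) and 0 genes passed. Curated transcripts alone left 1 transcript aged over young (Srsf3), beside 243 of all curated ones. Aged-sec over aged, 1 was lower (Clk2), beside 41 of all curated ones. By sums 1 gene and 0 genes were left. Aged-sec over aged, 2 genes were lower with a pseudocount of 0.1 TPM (Hnrnpa2b1 and Prpf39) and 2 with the highest row of each gene (Hnrnpa2b1 and Rbm44). Counts over all genes by sums at these settings are not given here. Of the values of single transcripts and genes under alternatives, 638 kept their side of the rule (those short of it include sums whose sign changed under scaling, such as Sf3b1 aged over young, 0.48 as deposited and −0.31 with median-of-ratios scaling), 10 no longer passed it and 3 newly did. Much of the first number was fixed in advance. Another minimum or dropping repeated rows changes no log2 ratio of a member, and most named sums were short of the rule from the start. Depth is unknown, so the error of low transcripts could not be given.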
